A study of Mus musculus with 14 samples.

Results

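The genes described here are 10 that are listed as induced in the heart by pressure load: the natriuretic peptide genes Nppa, Nppb and Nppc, the stress-responsive sarcomere gene Ankrd1, the actin genes Acta1, Actc1 and Acta2, the Xin repeat genes Xirp1 and Xirp2, and the calcineurin regulator Rcan1. They were taken by name, 10 of 21887 protein-coding genes, and each was given a window of its gene body with 10000 bp on either side (mm10). Within these windows lay 112 of the 1186054 regions on nuclear chromosomes in the 3 tables that the authors deposited: 59 of 388424 for G9a, 19 of 245088 for H3K9me2 and 34 of 552542 for H3K27me3. Window size follows gene length, from 21353 bp at Nppa to 100621 bp at Xirp2. The windows of Nppa and Nppb overlap, and these genes share 3 G9a and 3 H3K27me3 regions.

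The study sequenced immunoprecipitated chromatin from enriched cardiomyocytes of C57BL/6J mice, whose sex and age the labels do not give. One group had undergone transverse aortic constriction, a narrowing of the aorta that loads the left ventricle, 1 week earlier, and the other was labelled sham and untreated. Each group had 2 biological replicates for each antibody and 1 input library, 14 libraries in all. Every listed region carries 4 whole-number values, a first pair and a second pair of libraries, with a p of at most 0.01 from the authors. Only regions called different are listed, so a gene without a listed region may still carry G9a or either histone mark. No table names the pairs, so a direction is given as higher in the first or in the second pair, and the sense in which load acts at these genes cannot be read from the values. Nor is it stated that the pairs stand in the same order in each table. Wherever directions are compared between antibodies below, that order is assumed. Whether libraries of a pair came from separate animals is also not stated, and their spread may be partly technical. In such bulk chromatin, a change in the number of cells that carry a mark and a change in its level per cell cannot be told apart.

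G9a, encoded by Ehmt2, places the dimethyl mark on lysine 9 of histone H3 (H3K9me2), and Polycomb repressive complex 2 places the trimethyl mark on lysine 27 (H3K27me3). Both marks are associated with silent genes. The fetal heart expresses many of the 10 genes strongly, the adult ventricle lowers several of them after birth, and pressure load brings them back, which makes their transcripts standard markers of hypertrophy.

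The promoters of 6 of the genes, the 3 natriuretic peptide genes, Ankrd1 and both striated muscle actin genes, are shown so that the regions described below can be placed beside them. At Actc1 the only region lies inside the gene, 3075 bp from the start. Each sequence runs from 250 bases before to 50 after the annotated start, on the coding strand, as given by RefSeq for GRCm38.p6. Capitals mark matches to short motifs, each searched on both strands. The TATA box was searched as TATAAA. The core recognised by GATA factors was searched with the letters GATAA, and the core recognised by TEAD factors with the letters CATTCC. The CArG box, bound by serum response factor, was searched as CC, 6 letters of A or T, and GG. A MEF2 box was searched as well and had no match in the promoters shown. Matches on the other strand appear as their reverse complement. Nppa is at chr4:148000472-148000771 on the plus strand, Nppb at chr4:147985650-147985949 on the plus strand, Nppc at chr1:86670524-86670823 on the minus strand, Ankrd1 at chr19:36119795-36120094 on the minus strand, Acta1 at chr8:123894726-123895025 on the minus strand and Actc1 at chr2:114052826-114053125 on the minus strand.
Nppa: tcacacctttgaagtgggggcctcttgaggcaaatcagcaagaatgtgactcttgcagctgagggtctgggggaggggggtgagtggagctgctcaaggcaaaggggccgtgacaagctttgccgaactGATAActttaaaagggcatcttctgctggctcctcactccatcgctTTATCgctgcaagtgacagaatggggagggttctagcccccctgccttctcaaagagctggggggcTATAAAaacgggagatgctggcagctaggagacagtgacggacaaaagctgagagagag
Nppb: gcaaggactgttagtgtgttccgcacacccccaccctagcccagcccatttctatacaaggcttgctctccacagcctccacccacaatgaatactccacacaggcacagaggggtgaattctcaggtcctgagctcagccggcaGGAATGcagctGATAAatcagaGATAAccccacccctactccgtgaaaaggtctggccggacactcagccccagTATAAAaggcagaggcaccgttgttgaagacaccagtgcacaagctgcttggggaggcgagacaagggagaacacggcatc
Nppc: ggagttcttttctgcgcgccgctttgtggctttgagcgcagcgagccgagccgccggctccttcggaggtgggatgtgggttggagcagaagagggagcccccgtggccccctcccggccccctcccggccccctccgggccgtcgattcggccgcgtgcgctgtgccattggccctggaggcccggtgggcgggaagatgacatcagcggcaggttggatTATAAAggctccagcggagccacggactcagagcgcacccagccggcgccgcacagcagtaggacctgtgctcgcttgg
Ankrd1: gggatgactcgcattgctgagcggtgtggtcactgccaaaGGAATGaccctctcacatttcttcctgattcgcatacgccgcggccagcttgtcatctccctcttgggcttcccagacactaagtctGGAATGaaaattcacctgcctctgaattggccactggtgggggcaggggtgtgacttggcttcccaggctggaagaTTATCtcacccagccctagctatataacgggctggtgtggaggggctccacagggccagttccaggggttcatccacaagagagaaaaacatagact
Acta1: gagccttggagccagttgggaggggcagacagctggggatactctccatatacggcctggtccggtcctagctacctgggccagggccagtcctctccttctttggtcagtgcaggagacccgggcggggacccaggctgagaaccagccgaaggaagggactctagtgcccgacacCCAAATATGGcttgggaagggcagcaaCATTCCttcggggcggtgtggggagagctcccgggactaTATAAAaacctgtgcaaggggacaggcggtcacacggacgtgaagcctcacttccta
Actc1: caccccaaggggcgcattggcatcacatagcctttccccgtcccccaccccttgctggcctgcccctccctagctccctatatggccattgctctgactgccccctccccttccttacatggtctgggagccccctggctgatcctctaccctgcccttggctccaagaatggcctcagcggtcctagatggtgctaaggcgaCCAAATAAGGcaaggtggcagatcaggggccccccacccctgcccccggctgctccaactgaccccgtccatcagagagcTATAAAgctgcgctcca

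A TATAAA match stood from -31 to -26 at Nppb, from -29 to -24 at Nppc, from -9 to -4 at Nppa and from -7 to -2 at Acta1, counted from the annotated start, and at 33 to 38 after it at Actc1. It was present in 5 of the 10 promoter windows available for 9 of the genes (Rcan1 has a pair of starts, and Xirp1 is named only) and in 13.6% of all 32851 windows. GATAA matches were found at Nppa, Nppb, Ankrd1 and Acta2 (25.4% of all windows), and CATTCC matches at Nppb, Ankrd1, Acta1 and Acta2 (14.7%). A CArG box was found at Acta1 and Actc1, from -73 to -64 and from -47 to -38 (1.63% of all windows), and the MEF2 box, also searched on both strands, at Xirp2 (0.557%). No matches of different motifs overlapped in these 10 windows. A match is a run of letters and does not show that a factor binds there. Nppc had the most CpG dinucleotides of the 6 promoters shown, 29 of them, a number that 12.9% of all windows reach, whereas the windows of Nppa, Nppb, Ankrd1 and Actc1 held 6 or 7, beside a median of 7.

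Listed regions were placed unevenly over the 10 genes. G9a regions higher in the first pair lay in the windows of all 10 genes, and those higher in the second pair in 8 of them, all but Actc1 and Xirp2. The corresponding shares of all protein-coding genes were 89.1% and 73.2%. First-pair H3K9me2 regions reached 5 genes, and second-pair ones reached 5, Nppa, Nppb, Ankrd1, Acta2 and Rcan1, against 64.7% and 52% of all genes. H3K27me3 regions reached 6 genes in the first-pair direction and 5 in the second, against 79.9% and 69.7%; Ankrd1, Actc1, Xirp2 and Rcan1 had none. Actc1, which encodes the main cardiac actin, was the member with the fewest regions, 1 in all.

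**Figure D1:**
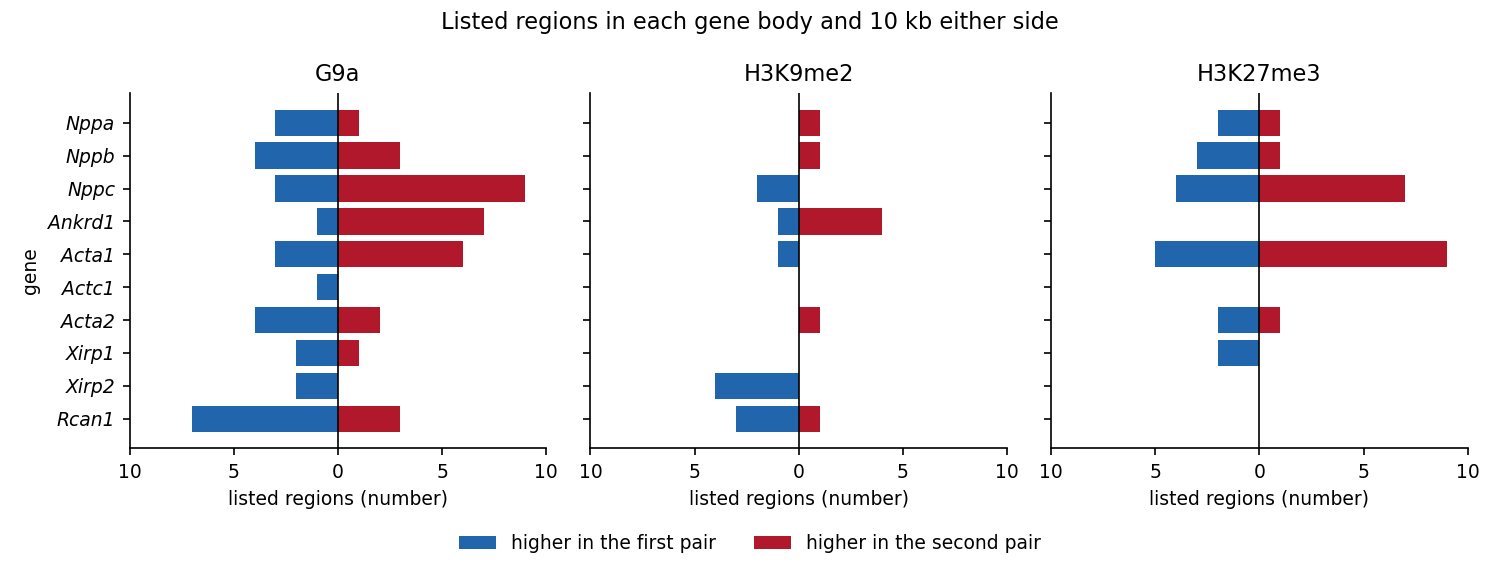
Number of listed regions in the window of each of the 10 genes (rows), by antibody (panels); bars to the left count regions higher in the first pair and bars to the right regions higher in the second. H3K9me2 bars to the right are longest at Ankrd1 (4 regions), and H3K27me3 bars are longest at Acta1 (14 regions in all) and Nppc (11).

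By region, 32 of 59 for G9a were higher in the second pair, 8 of 19 for H3K9me2 and 18 of 34 for H3K27me3, beside 44.5%, 44.4% and 42.7% of all regions in the respective tables. Pairs were separated, meaning that both values of one exceeded both values of the other, at 33 of the 59 G9a regions (61.3% of all), 16 of the 19 H3K9me2 regions (67.9%) and 29 of the 34 H3K27me3 regions (69.2%). The median log2 difference (second-pair mean over first-pair mean, 1 added to both) was 1.68 for the 8 second-pair H3K9me2 regions, beside 0.97 for all such regions. That value came from Ankrd1, which holds 4 of the 8; the other 4 had a median of 0.93. It was 1.06 beside 1.01 for second-pair G9a regions and 0.90 beside 0.84 for second-pair H3K27me3 regions. First-pair medians were -1.03 beside -1.08 for G9a, -1.03 beside -1.02 for H3K9me2 and -0.80 beside -0.98 for H3K27me3.

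A difference was called by the authors' deposited p. A second look with limma on log2(value + 1), adjusted by the Benjamini-Hochberg method over all regions of a table, called none of the members' regions at 0.05; the shares called over whole tables were 0% for G9a, 0.000408% for H3K9me2 and 0% for H3K27me3. At an unadjusted limma p of 0.05 it called 5 of 59, 4 of 19 and 10 of 34 (6.7%, 11.8% and 18.8% of all regions). With 2 libraries against 2, an exact permutation test of 1 region cannot go below p = 0.3333, two-sided.

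In the G9a table, library 1 of the second pair stood apart. It was listed at 0 in 9.341% of all regions and in 4 of the members' 59, and it was the lowest of the 4 values in 25 of the members' 27 first-pair regions (79.3% of all such regions) and the highest in 16 of the 32 second-pair ones (47.3%). Without it the direction held in 24 of the 27 and in 29 of the 32 (90.1% and 96.1% of all). The 3 second-pair regions that turned without it all lie at Ankrd1, and the 3 first-pair ones at Ankrd1, Xirp1 and Xirp2. Its part in the G9a results was not tested. Log2 values below that 1 library moves by over 1.5 times in fold are also given with a library left out, or as the range over leaving out each library in turn. Where only some libraries are named, leaving out another can move the value as far or farther.

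Nppa and Nppb encode atrial and B-type natriuretic peptide, hormones that the loaded heart releases to promote salt and water excretion. They lie in a tandem array on chromosome 4, Nppb at chr4:147985786-147987205 and Nppa at chr4:148000722-148002074, both on the plus strand. No listed region of any table overlapped either gene body; all lay in the flanks. Each gene had 1 H3K9me2 region, upstream of its start and higher in the second pair.

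The H3K9me2 region of Nppa (chr4:147998851-147999800) spans -1871 to -922 from the start, and its values per the authors' deposited table were 30 and 109 in the first pair, with 180 and 150 for the second pair. Both second-pair values lie above both first-pair values, and library 1 of the first pair is much the lowest. The log2 difference of 1.24 came to 0.59 without that library and 2.42 without library 2 of that pair. For Nppb the region (chr4:147983501-147984500) spans -2399 to -1400 and had 138 and 71 versus 177 and 170 per the authors' deposited table. The pairs do not overlap here either, although the upper value of the first pair comes close to the second pair. The log2 difference was 0.73, falling between 0.33 and 1.28 with 1 first-pair library left out. Neither region stands out among all second-pair H3K9me2 regions, since 19.2% have a p at least as small as that of Nppa and 53.3% as that of Nppb. The adjusted limma p was 0.383 for both.

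G9a regions around Nppb differed in direction along the locus. Going along the chromosome, 3 regions upstream of Nppb were higher in the second pair and the next 4, reaching from its upstream flank into the stretch between both genes, were higher in the first. The second-pair region with the smallest p (chr4:147978101-147978900, -7799 to -7000 from the Nppb start) had 68 and 86 versus 176 and 176 per the authors' deposited table; the pairs do not overlap and the log2 difference was 1.18. Of the 3 G9a regions shared with Nppa, the one with the smallest p (chr4:147993901-147994350) had 138 and 27 versus 6 and 34 per the authors' deposited table. Its pairs overlap, since 1 first-pair library gives most of the difference, and the log2 value of -1.99 came to -0.42 without it. The remaining G9a region of Nppa lies under Clcn6, the chloride transporter gene downstream, and had overlapping values of 17 and 154 versus 70 and 245 per the authors' deposited table (log2 0.87, which turned to -0.28 without library 2 of the second pair).

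H3K27me3 in the same intergenic stretch was mostly higher in the first pair. The shared region between both genes (chr4:147995351-147996000, -5371 to -4722 from the Nppa start) had 193 and 104 versus 39 and 30 per the authors' deposited table. Both first-pair values exceed both second-pair values, with a log2 difference of -2.07. A second shared region (chr4:147993301-147993700) had 30 and 27 versus 53 and 90 per the authors' deposited table (log2 1.30) and ran the other way. Upstream of Nppb, a region that only its own window holds (chr4:147976401-147976850) had 144 and 37 versus 23 and 3 per the authors' deposited table, and here too the pairs do not overlap (log2 -2.71, with a range of -4.52 to -1.44 when 1 library is left out). If the pairs stand in the same order for both marks, the H3K9me2 regions and most H3K27me3 regions of both genes ran in opposite directions. They lay at separate positions, and no H3K9me2 region of Nppa or Nppb overlapped a region of another table.

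Nppc encodes C-type natriuretic peptide, which acts mainly as a local signal of vessel walls and growing bone. Its gene (chr1:86666293-86670573, minus strand) differed from both others in that listed H3K27me3 regions covered 88.67% of its window, against 7.259% for Nppa and 9.337% for Nppb. A single H3K27me3 region of 9700 bp (chr1:86667301-86677000) spans the start, from -6427 to 3272, and takes in the whole promoter window printed above. It had 3584 and 2572 versus 4960 and 4176 per the authors' deposited table. The pairs do not overlap, the log2 difference is 0.57, and 2.305% of second-pair H3K27me3 regions have a p at least as small (limma SE 0.19, unadjusted p = 0.0115, adjusted p = 0.219).

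The other 10 H3K27me3 regions of Nppc were split, with 6 in the second-pair and 4 in the first-pair direction. Summed over the 11 regions, the deposited values were 7105 and 6166 in the first pair, with 9873 and 8270 for the second pair, a log2 difference of 0.45 with pairs that do not overlap. Of the 12 G9a regions at Nppc, 9 were higher in the second pair, on both sides of the start, and 3 in the first. The second-pair one with the smallest p (chr1:86664501-86665500, 5073 to 6072 downstream of the start) had 38 and 54 versus 218 and 254 per the authors' deposited table. Both second-pair libraries were several times the first pair, with a log2 difference of 2.33 (2.44 without library 1 of the second pair; adjusted p = 0.471 in limma). The first-pair G9a region with the smallest p (chr1:86679401-86680500, from -9927 to -8828) had 128 and 312 versus 40 and 105 per the authors' deposited table, with no overlap (log2 -1.59, or -1.06 without library 1 of the second pair and -0.81 without library 2 of the first). Both regions rank alike in their directions, in the top 5.357% and 5.623% by p. Of 13 overlaps between a G9a and an H3K27me3 region at Nppc, several of them with the 9700 bp region, 8 had the same direction. The share of all such overlaps with the same direction was not counted. H3K9me2 had 2 regions at Nppc, both higher in the first pair, the clearer with 93 and 128 versus 53 and 75 per the authors' deposited table (log2 -0.78).

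**Figure D2:**
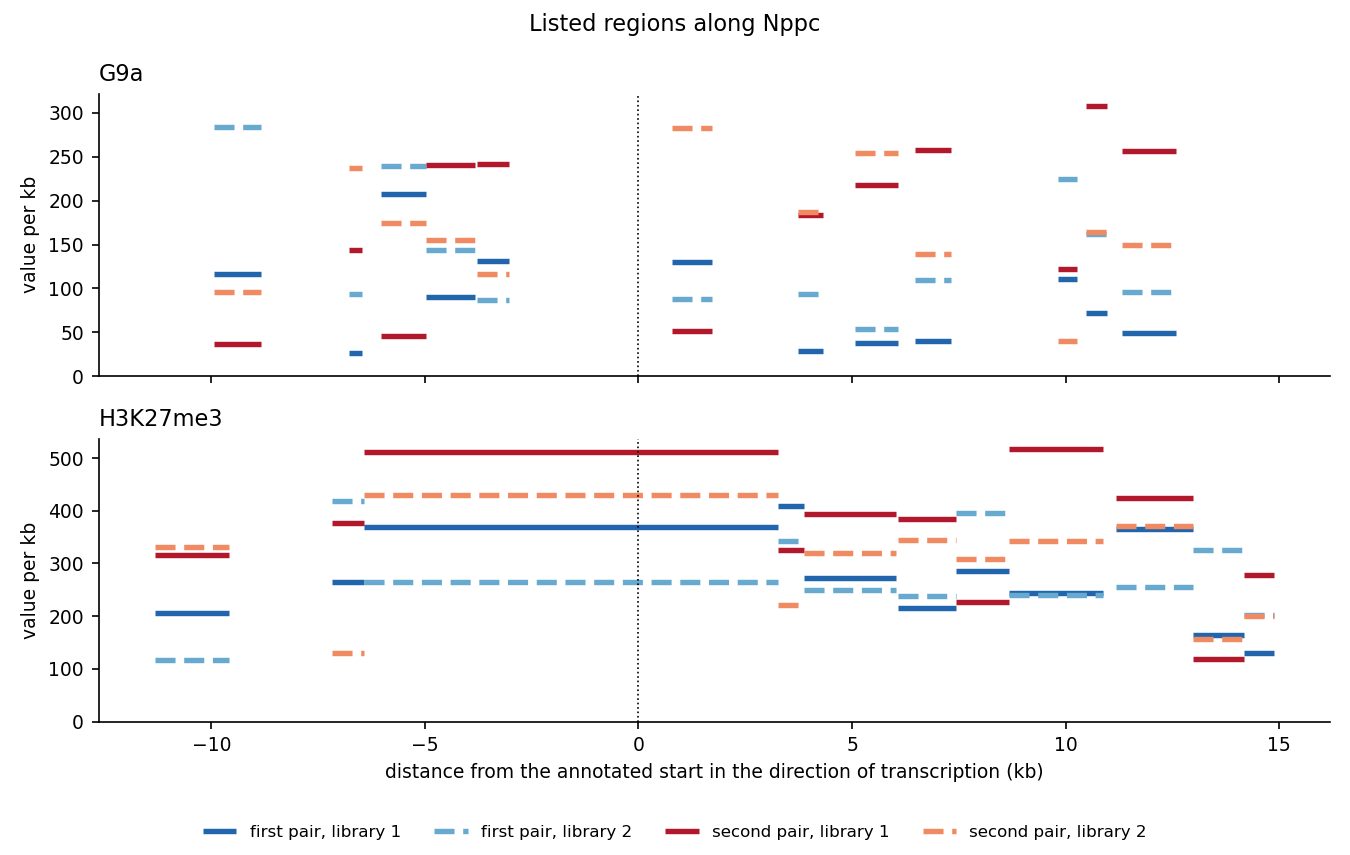
Listed regions along Nppc for G9a (upper panel) and H3K27me3 (lower panel); the horizontal axis is distance from the annotated start in kb in the direction of transcription, the vertical axis the deposited value per kb of region, and each horizontal line the value of 1 library over the length of a region. In the 9700 bp H3K27me3 region over the start, both second-pair lines lie above both first-pair lines.

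Ankrd1 encodes a cardiac ankyrin repeat protein that sits at titin in the sarcomere, also enters the nucleus, and is a widely used marker of load. The gene (chr19:36111965-36119844, minus strand) held the H3K9me2 regions with the smallest deposited p of the 10. Upstream of the start, from -2706 to -707, the H3K9me2 region chr19:36120551-36122550 had 135 and 76 in the first pair, with 941 and 919 for the second pair, per the authors' deposited table. The pair means were 105.5 and 930, and the second-pair libraries are close to each other and far above both others. Its rank by p was 23 of 108717 second-pair H3K9me2 regions. The log2 difference was 3.13 and stayed between 2.78 and 3.60 with any 1 library left out. In limma the standard error was 0.42 and the unadjusted p 1.2e-05, but the p adjusted over the table was 0.307.

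G9a was listed as higher in the second pair over the same stretch, although whether that pair is the same group in both tables is not stated. The G9a region chr19:36120301-36122650, from -2806 to -457, had 157 and 212 versus 1749 and 443 per the authors' deposited table. Both second-pair values exceed both first-pair values, but they differ widely from each other. The log2 difference of 2.56 came to 1.26 without library 1 of the second pair and 3.24 without library 2 (adjusted p = 0.471 in limma). This region ranked 145 of 173035 second-pair G9a regions by p. Per kb of region, the mean over the 4 libraries was 259 for H3K9me2 and 272 for G9a upstream of Ankrd1, where the median of all regions was 131.2 in both tables and the 95th percentile 174.3 and 181.4. The G9a mean rests mostly on library 1 of the second pair, with 1749 beside 157, 212 and 443.

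Inside the gene body, 3 more H3K9me2 regions were higher in the second pair. Going from the end of the gene to its start, the region chr19:36115051-36115850 had 12 and 33 versus 294 and 195 per the authors' deposited table (log2 3.38, with a range of 2.85 to 4.24 when 1 library is left out and a -log10 p of 45.1). The region chr19:36117851-36118550 had 19 and 56 versus 147 and 186 per the authors' deposited table (2.12, range 1.56 to 3.07), and the one nearest the start, chr19:36119201-36119600, had 0 and 22 versus 112 and 159 (3.51, or 2.57 without the library listed at 0). In all 3 both second-pair values exceed both first-pair values. The only first-pair H3K9me2 region, chr19:36126451-36126800, lies farther upstream and had 55 and 55 versus 30 and 23 per the authors' deposited table (-1.03).

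All 4 second-pair H3K9me2 regions of Ankrd1 overlapped a second-pair G9a region, as did 17.27% of second-pair H3K9me2 regions in the whole table. At 2 of the 4, however, the G9a direction rests on library 1 of the second pair: chr19:36117801-36118350, with 56 and 77 versus 152 and 48 per the authors' deposited table (log2 0.58), came to -0.46 without it, and chr19:36119201-36119550, with 21 and 38 versus 163 and 0 (1.44), came to -4.93. Of the 7 second-pair G9a regions, 2 were separated: the upstream one and chr19:36115001-36115900 in the gene body, with 3 and 79 versus 453 and 200 per the authors' deposited table (log2 2.96, or 2.26 without library 1 of the second pair and 2.03 without library 1 of the first). In the other 5 the pairs overlap. Among 18770 second-pair H3K9me2 regions that overlap a second-pair G9a region, 7 (0.0373%) had log2 differences at least as large as the upstream Ankrd1 region in both tables, itself included. Without library 1 of the second pair in the G9a table, 47 (0.25%) did. Summed over its regions, the deposited values at Ankrd1 were 221 and 242 versus 1524 and 1482 for H3K9me2 (log2 2.69) and 493 and 713 versus 2801 and 1117 for G9a (1.70, or 0.89 without library 1 of the second pair).

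The annotated start of Ankrd1 itself lay between listed regions. The near edge of the closest H3K9me2 region was 244 bp downstream of it, the upstream one began at -707, and no region of any table overlapped the promoter window printed above. The single first-pair G9a region of the window lies under the neighbouring gene Rpp30, 17494 bp from the start, with overlapping values of 139 and 146 versus 58 and 145 per the authors' deposited table; its log2 value of -0.49 turned to 0.025 without library 1 of the second pair.

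**Figure D3:**
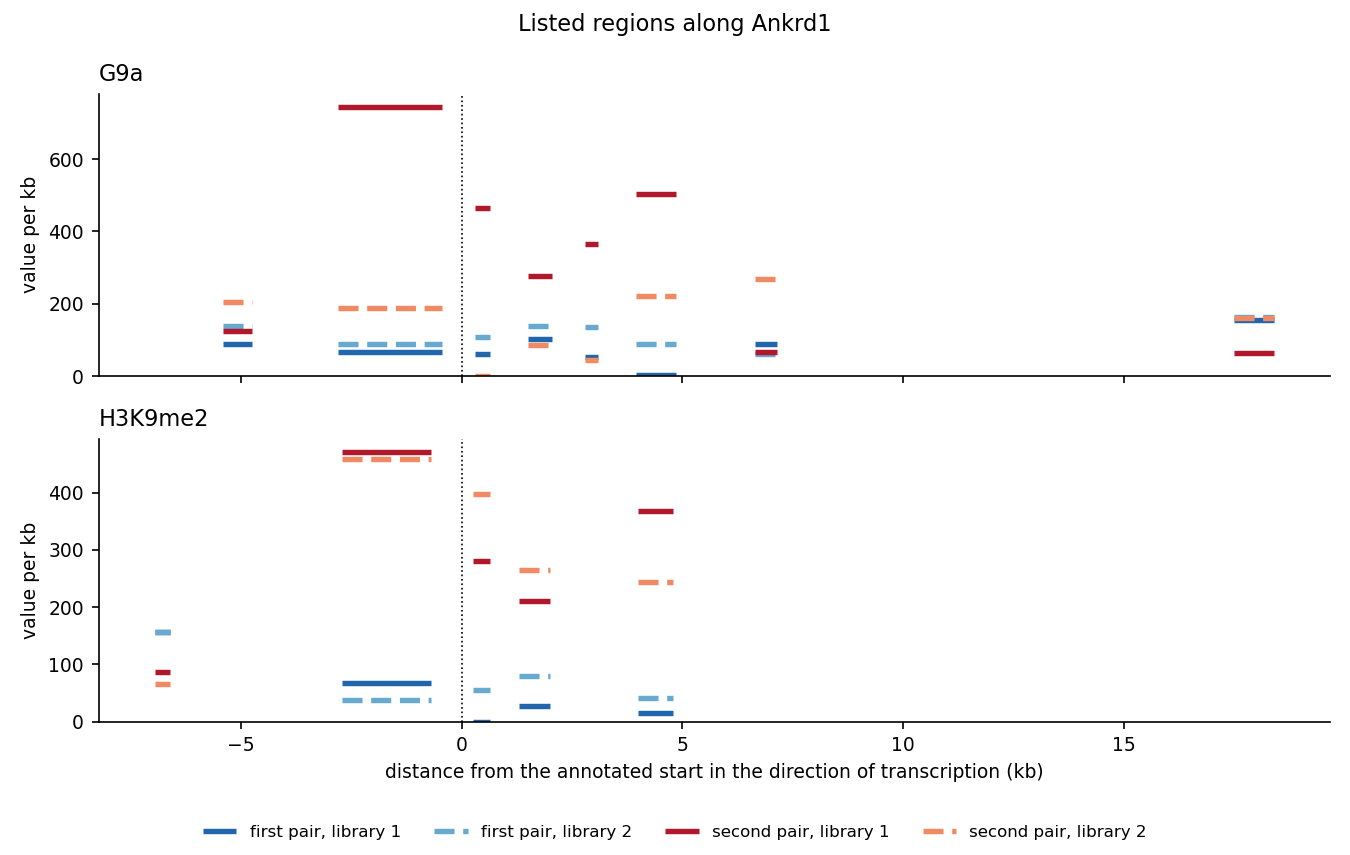
Listed regions along Ankrd1 for G9a (upper panel) and H3K9me2 (lower panel); the horizontal axis is distance from the annotated start in kb in the direction of transcription, the vertical axis the deposited value per kb, and each horizontal line 1 library over a region. In the H3K9me2 panel both second-pair lines lie far above both first-pair lines from -2706 to -707 bp and in the 3 gene body regions, whereas in the upstream G9a region library 1 of the second pair lies far above the other 3.

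Acta1 encodes skeletal muscle alpha actin, an actin of the fetal heart that returns under load. Its window (gene at chr8:123891758-123894775, minus strand) held 14 H3K27me3 regions, the most of the 10 genes, covering 63.83% of the window. Over the gene body, the region chr8:123891951-123894600 had 834 and 698 versus 1182 and 1116 per the authors' deposited table. The pairs do not overlap, and the log2 difference was 0.58. Downstream of the gene, the region with the smallest p (chr8:123880151-123882450, 12325 to 14624 from the start) had 362 and 263 versus 927 and 726 per the authors' deposited table, again with both second-pair values higher (log2 1.40; limma SE 0.36, unadjusted p = 0.0023, adjusted p = 0.192). Of the 14, 9 were higher in the second pair and 5 in the first. The first-pair region with the smallest p (chr8:123884851-123885650) had 311 and 271 versus 195 and 167 per the authors' deposited table, with no overlap (log2 -0.68). Summed over the 14 regions, the deposited values were 3033 and 2767 versus 4653 and 3863 (log2 0.55).

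The start of Acta1 fell in a gap of 500 bp between listed H3K27me3 regions. The gene body region began 175 bp downstream and the next region 326 bp upstream. A G9a region filled that gap and reached beyond it (chr8:123894601-123895250, covering the promoter window printed above), with 117 and 16 versus 78 and 185 per the authors' deposited table. The libraries of each pair disagree there and the pairs overlap. Its log2 value was 0.97, which came to 2.96 without library 1 of the first pair and 0.17 without library 2.

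All 11928 abutting pairs of G9a regions in the table differed in direction, and how the regions were cut is not stated. Within the gene body lay such a pair of abutting regions, in opposite directions. The one farther from the start, chr8:123891901-123892850, had 308 and 305 versus 78 and 132 per the authors' deposited table, so that the first pair agrees closely and lies well above the second. Its log2 difference was -1.54, or -1.21 without library 1 of the second pair, and 2.697% of first-pair G9a regions have a p at least as small. The region next to it, chr8:123892851-123893800, had 152 and 73 versus 200 and 280 per the authors' deposited table, with the second pair higher and no overlap (log2 1.09, or 1.70 without library 1 of the first pair). The H3K27me3 region that overlaps both was higher in the second pair. One H3K9me2 region upstream (chr8:123895951-123896450) had overlapping values of 45 and 119 versus 5 and 58 per the authors' deposited table (log2 -1.35, with a range of -3.79 to -0.49 when 1 library is left out). Of the regions farther upstream, 3 lie under Nup133, a nuclear pore gene.

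**Figure D4:**
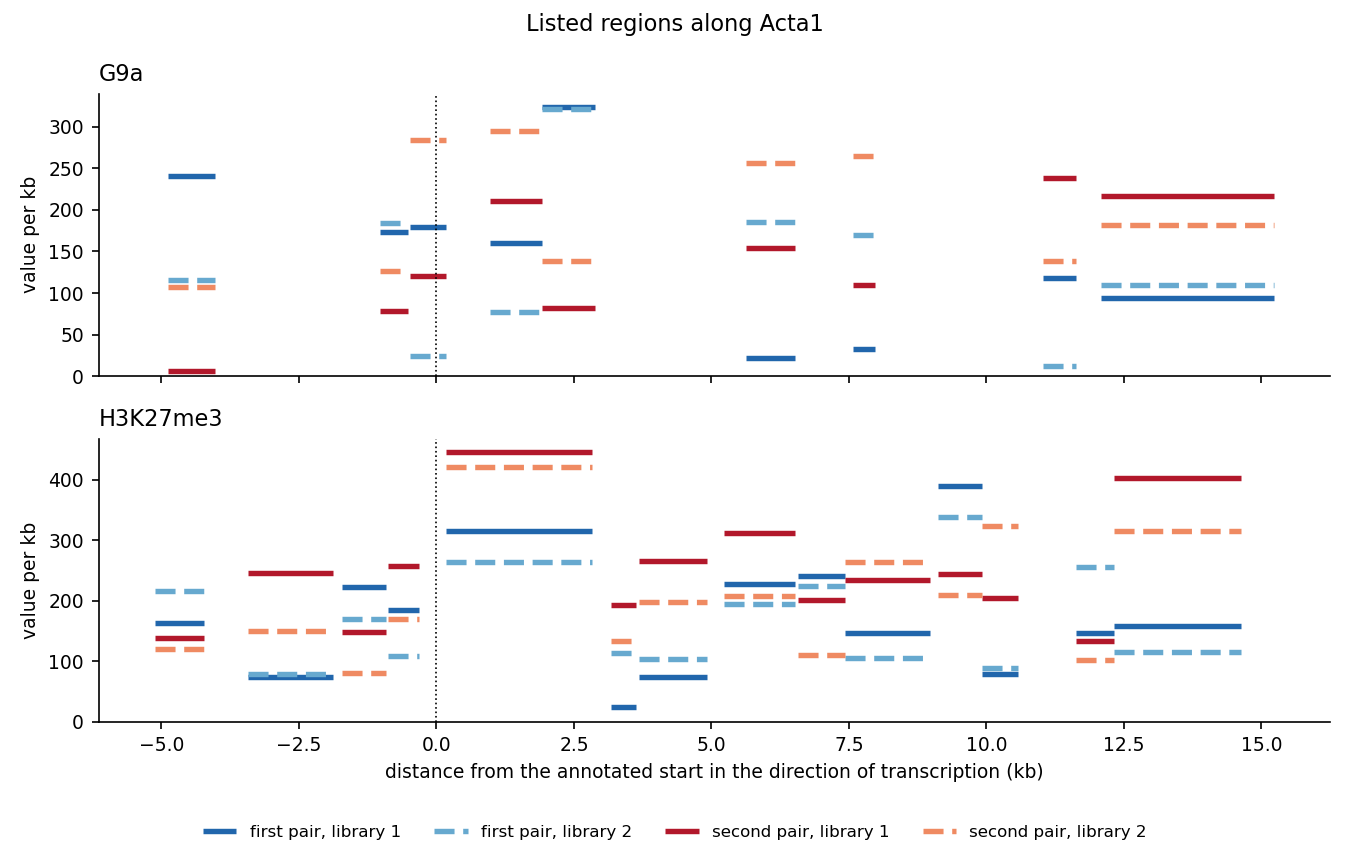
Listed regions along Acta1 for G9a (upper panel) and H3K27me3 (lower panel); the horizontal axis is distance from the annotated start in kb in the direction of transcription, the vertical axis the deposited value per kb, and each horizontal line 1 library over a region. H3K27me3 lines are absent at the start, where the G9a region with 117 and 16 versus 78 and 185 lies.

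Neighbouring H3K27me3 regions differed in direction in 8 of 10 pairs at Nppc and 9 of 13 at Acta1. For G9a they did in 5 of 11 and 3 of 8. Over the 10 genes, neighbours were counted per gene, so that pairs shared by Nppa and Nppb enter for both. The direction differed between neighbours in 22 of 28 pairs of H3K27me3 regions up to 10000 bp apart (45.6% of all such pairs in the table). It did in 14 of 45 for G9a (40.1%) and 1 of 6 for H3K9me2 (49.7%). Of the H3K27me3 pairs, 7 at Nppc and 3 at Acta1 abut each other, and the direction differs in all of them. That holds for every abutting pair of the table, 42521 of 42521, so it is not particular to Nppc and Acta1. How the regions were cut is not stated.

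Actc1 encodes cardiac alpha actin, the main actin of the adult heart. Its single region, for G9a inside the gene (chr2:114049151-114049800, 3075 to 3724 from the start), had 116 and 109 versus 5 and 99 per the authors' deposited table. The pairs are separated, but 1 library makes the difference: the log2 value of -1.10 came to -0.18 without library 1 of the second pair.

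Acta2 encodes smooth muscle alpha actin, found in vessel walls, myofibroblasts and the early heart. Along the gene (chr19:34240336-34255585, minus strand), 4 G9a regions toward its end were higher in the first pair and the 2 nearest the start in the second. Of these 2, the one inside the gene, chr19:34253651-34254200, had overlapping values of 45 and 47 versus 19 and 172 per the authors' deposited table. Its log2 value of 1.04 turned to -1.23 without library 2 of the second pair. The region upstream of the start, chr19:34257451-34257850, had 25 and 25 versus 93 and 62 per the authors' deposited table, with no overlap (log2 1.59, or 1.28 without library 1 of the second pair). The first-pair region with the smallest p (chr19:34232801-34233500), under Stambpl1, had 140 and 148 versus 21 and 103 per the authors' deposited table (log2 -1.20, or -0.48 without that library). Only 2 of the 6 G9a regions were separated.

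H3K27me3 near the Acta2 start (chr19:34254201-34254700, 673 to 1172 downstream) had 36 and 21 versus 146 and 62 per the authors' deposited table. The pairs do not overlap, and the log2 difference was 1.83, or 1.09 without library 1 of the second pair. In the middle of the gene, chr19:34245851-34246650 had 180 and 129 versus 50 and 111 per the authors' deposited table, the other way round (-0.93, or -0.47 without library 1 of the second pair and -1.61 without library 2). The H3K9me2 region of Acta2 (chr19:34236901-34237850) lies under Stambpl1, a deubiquitinase gene, and its pairs overlap with 134 and 54 versus 247 and 87 per the authors' deposited table; its log2 value of 0.82 turned to -0.11 without library 1 of the second pair.

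Xirp1 and Xirp2 encode Xin actin-binding repeat proteins of the intercalated disc. Of 11 regions at both genes, 1 was higher in the second pair, beside 44.5%, 44.4% and 42.7% of all G9a, H3K9me2 and H3K27me3 regions. It was the G9a region chr9:120008001-120008550 of Xirp1, with overlapping values of 8 and 98 versus 73 and 115 per the authors' deposited table (log2 0.82, and -0.060 without library 1 of the first pair). Without library 1 of the second pair, 1 first-pair G9a region of each gene turned (log2 -0.82 to 0.10 at Xirp1 and -0.86 to 0.016 at Xirp2). None of the 3 G9a regions of Xirp1 (gene at chr9:120013755-120023598) was separated. Both H3K27me3 regions were, one on each side of the gene. The region chr9:120032651-120033800 had 291 and 232 versus 119 and 70 per the authors' deposited table (log2 -1.46, unadjusted p = 0.0222 in limma, adjusted p = 0.236), and chr9:120006051-120006400 had 88 and 59 versus 17 and 0 (-2.97, with a range of -6.22 to -2.05 when 1 library is left out and 1 library listed at 0).

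At Xirp2 (chr2:67446000-67526620, plus strand) 4 H3K9me2 regions were listed, all higher in the first pair and all separated. The one with the smallest p, chr2:67437101-67437500, lies from -8901 to -8502 and had 58 and 83 versus 31 and 13 per the authors' deposited table (log2 -1.64, or -2.35 without library 1 of the second pair; adjusted p = 0.383 in limma). Of its 2 G9a regions, chr2:67520251-67520800 had 97 and 88 versus 0 and 61 per the authors' deposited table, a separated difference of -1.57 that came to -0.59 without library 1 of the second pair.

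Rcan1 encodes a regulator of calcineurin, the calcium-activated phosphatase that drives hypertrophic gene expression through NFAT, and its shorter isoform is itself an NFAT target. The gene (chr16:92391951-92466169, minus strand) has starts at 92466169 and 92400078 in the promoter table. G9a regions of both directions followed each other along it, 7 higher in the first pair and 3 in the second. The second-pair region with the smallest p lies past the end of the gene (chr16:92380201-92383900) and had 373 and 300 versus 1158 and 525 per the authors' deposited table. Both second-pair values are higher, the log2 difference was 1.32, or 0.64 without library 1 of the second pair, and 2.07% of second-pair G9a regions have a p at least as small.

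Upstream of the Rcan1 start at 92466169, G9a regions ran in both directions. The nearest, chr16:92467151-92468100 (-1931 to -982), was higher in the first pair, with overlapping values of 157 and 182 versus 18 and 160 per the authors' deposited table. Its log2 value of -0.92 came to -0.083 without library 1 of the second pair. Farther upstream, and abutting a first-pair region, chr16:92469451-92472450 had 310 and 346 versus 691 and 453 per the authors' deposited table (log2 0.80, no overlap). It holds the only second-pair H3K9me2 region of the gene, chr16:92471401-92471900, with 43 and 40 versus 51 and 122 per the authors' deposited table (1.04, or 0.29 without library 2 of the second pair). The first-pair G9a region with the smallest p (chr16:92422701-92424250), inside the gene, had overlapping values of 250 and 306 versus 18 and 254 per the authors' deposited table (log2 -1.03, and -0.13 without library 1 of the second pair). The first-pair H3K9me2 region with the smallest p, chr16:92438901-92439450, also overlapped, with 142 and 52 versus 27 and 55 per the authors' deposited table (-1.22, or -0.34 without library 1 of the first pair).

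**Figure D5:**
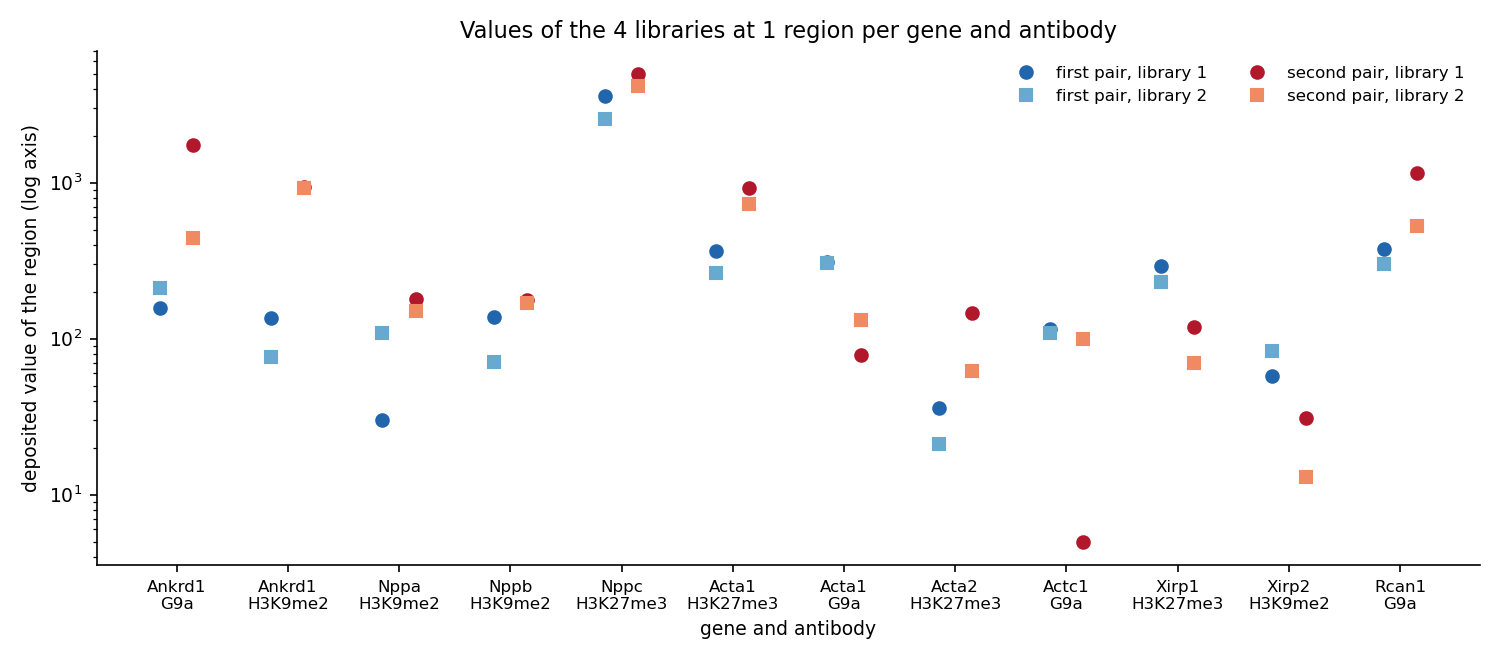
Deposited values of the 4 libraries (log axis) at the region with the smallest p of 1 direction, for 12 combinations of gene and antibody; blue points are the first pair and red or orange points the second. The second-pair points of Ankrd1 H3K9me2 nearly coincide at 941 and 919, those of Ankrd1 G9a lie at 1749 and 443, and at Actc1 one second-pair point lies at 5 and the other at 99.

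Over the 6 combinations of table and direction, Nppa, Nppb and Acta2 had the same pattern of presence and absence of regions, shared with 4.204% of protein-coding genes (920 genes). Nppc and Acta1 had another, found in 12.43%. Ankrd1 and Rcan1 shared a pattern found in 0.9367% of genes. All H3K27me3 and all first-pair G9a regions of Nppa also lie in the window of Nppb, so the patterns of Nppa and Nppb are not independent. Likeness was measured as the Euclidean distance between log2 differences of locus sums, over the tables with a region and among genes of the same pattern. Over 3 tables, Mfsd13a, Atp13a1 and Col4a6 were nearest to Nppa (distances 0.18 to 0.28) and Ppp1r32, Sox21 and D6Ertd527e to Acta1 (0.053 to 0.071). Those nearest to Nppb were Cyp2r1, Adam25 and Cavin3 (0.34 to 0.36). Over the 2 tables with regions at Ankrd1, the nearest was Dmd, the dystrophin gene, at a distance of 1.91, with locus log2 differences of 0.75 for G9a and 1.03 for H3K9me2 where Ankrd1 had 1.70 and 2.69.

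Genes that process, receive or end the natriuretic signal were compared by the same counts. Of 13 such genes, 13 had a first-pair and 11 a second-pair G9a region, 12 and 9 for H3K9me2, and 13 and 10 for H3K27me3. For these and the lists that follow, the shares of all genes are again 89.1% and 73.2% for G9a, 64.7% and 52% for H3K9me2, and 79.9% and 69.7% for H3K27me3, in first- and second-pair order. Npr1, the receptor of atrial and B-type peptide, had an H3K27me3 region of 3224 and 3140 versus 5704 and 4863 per the authors' deposited table (log2 0.73, no overlap). Npr3, the clearance receptor, had an H3K9me2 region of 35 and 1 versus 217 and 78 per the authors' deposited table (2.97, with a range of 2.04 to 6.21 when 1 library is left out). At Ide, a protease that degrades natriuretic peptides, H3K9me2 was 396 and 433 versus 13 and 4 per the authors' deposited table (-5.45, range -6.38 to -4.89). Pde9a and Pde2a, which break down cyclic GMP, had G9a regions of 308 and 740 versus 2788 and 1025 (1.86, or 0.97 without library 1 of the second pair) and of 479 and 589 versus 1679 and 1102 (1.38) per the authors' deposited table. The H3K27me3 region of Pde2a had 3640 and 3220 versus 6268 and 6061 per the authors' deposited table (0.85). No region of these genes passed the adjusted limma threshold, nor did any of the lists that follow.

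Transcription factors and coactivators listed as regulators of the member genes numbered 18. First- and second-pair regions were found at 16 and 10 of them for G9a, at 11 and 10 for H3K9me2, and at 9 and 6 for H3K27me3. Hand2 had no listed difference in any table, and Gata4, Gata6 and Mef2d had none for either mark. Nkx2-5, a cardiac homeobox factor, had an H3K9me2 region outside the gene body with 160 and 240 versus 690 and 632 per the authors' deposited table. The second pair agrees closely and lies well above the first (log2 1.72). H3K27me3 at Tbx5, a T-box factor, was 3521 and 3741 versus 6158 and 4944 per the authors' deposited table (0.61). At Tead4, a factor that binds CATTCC, it was 257 and 298 versus 956 and 818 (1.67), and G9a there was 258 and 365 versus 766 and 716 per the authors' deposited table (1.25). First-pair regions included G9a at Mrtfa, a coactivator of serum response factor (239 and 179 versus 5 and 32 per the authors' deposited table, -3.43, or -2.67 without library 1 of the second pair), and H3K9me2 at Tead1 (207 and 97 versus 15 and 3, -3.94, range -5.26 to -3.26).

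Around Rcan1, 15 genes of calcineurin and NFAT signalling had first- and second-pair regions at 15 and 13 for G9a, 9 and 7 for H3K9me2, and 12 and 10 for H3K27me3. The regions with the smallest p for G9a and H3K27me3 were second-pair: G9a beside Nfatc2, with 380 and 583 versus 1957 and 825 per the authors' deposited table (log2 1.53, or 0.78 without library 1 of the second pair), and H3K27me3 at Nfatc4, with 1701 and 1692 versus 3132 and 3289 (0.92). Both encode NFAT factors. At Ppp3ca, a calcineurin catalytic subunit, H3K9me2 was 218 and 122 versus 46 and 10 per the authors' deposited table (-2.56, range -3.96 to -1.86). Relatives of the structural members numbered 19, with counts of 15 and 11 for G9a, 9 and 5 for H3K9me2, and 7 and 9 for H3K27me3. Myh6, the adult cardiac myosin heavy chain gene, had a G9a region beside it of 480 and 749 versus 1788 and 1115 per the authors' deposited table (1.24). Myh7, its fetal counterpart, had no listed difference in any table. Actg2, another smooth muscle actin gene, had an H3K27me3 region of 295 and 114 versus 575 and 516 per the authors' deposited table (1.41, range 0.88 to 2.25). Nrap, which encodes a nebulin-related protein of the intercalated disc, had an H3K9me2 region of 89 and 62 versus 0 and 3 per the authors' deposited table (-4.94, range -6.26 to -4.26).

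The tables hold no expression, so the labelled cell type could be looked at only as marker loci with listed regions. Of 10 cardiomyocyte markers, 7 had no listed H3K9me2 region, whereas 73.73% of all genes had one. Of the 63 G9a regions at these markers, 28 were higher in the second pair. At Tnnt2, cardiac troponin T, G9a and H3K9me2 regions with the same ends were both higher in the second pair, with 39 and 77 versus 766 and 191 for G9a (log2 3.02, or 1.70 without library 1 of the second pair) and 61 and 104 versus 353 and 442 for H3K9me2 (2.25) per the authors' deposited tables. Second-pair G9a regions made up 210 of 303 at 10 endothelial markers, 58 of 111 at 10 fibroblast markers, 80 of 150 at 10 smooth muscle and pericyte markers, and 74 of 119 at 10 leukocyte markers, beside 44.5% of all G9a regions. For H3K9me2 the second-pair counts were 6 of 11 at cardiomyocyte, 31 of 87 at endothelial, 18 of 45 at fibroblast, 6 of 28 at smooth muscle and 33 of 63 at leukocyte markers, and for H3K27me3 6 of 11, 152 of 291, 70 of 137, 88 of 146 and 88 of 182. Over all regions the second-pair shares were 44.4% and 42.7%. The part of other cell types in the differences at Nppc, Acta2 and the rest of the 10 genes was not tested.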

How the data were processed

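Immunoprecipitated chromatin was measured in 12 libraries, and 2 inputs were not used here. Per the submitters' processing notes, BWA 0.7.10-r789 and SAMtools 1.1 were used with mm10 (GRCm38). The sources used here do not give the region caller, its scaling, its input correction or the sequencing depth. For each antibody the authors deposited 1 header-free table, each region with 4 whole-number values and a -log10 p. These values, of no stated unit, were not treated as raw read counts, so the count model foreseen for them was not used and no interval from counting is given. Regions were taken where at least 1 bp overlapped a window.

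Log2 differences used pair means and a pseudocount of 1, which understates changes of low regions. limma 3.58.1 (R 4.3.3, trend, no block) ran on all regions of a table, on differences the authors had already selected, and was tested on simulated data. Tables were handled with Python 3.11.15, pandas 2.3.3 and numpy 2.4.6. Dividing libraries by size factors moved the median log2 of all regions from -0.67 to -0.60 (G9a), -0.66 to -0.47 (H3K9me2) and -0.58 to -0.42 (H3K27me3). Gene positions are from GRCm38.p6 and do not tell exons from introns.

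The members, lists and tests were chosen with earlier results of these data known. Named regions are, per member, table and direction, the one with the smallest deposited p, and any over a start. Other regions named at Nppb, Ankrd1, Acta1, Acta2, Xirp1 and Rcan1 were chosen after their values were seen. Of 9 other gene lists (natriuretic signalling, regulators, calcineurin and NFAT, structural relatives, and 5 sets of cell type markers), up to 2 genes per table by the same p could be named.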

Additional observations from a re-analysis of the deposited data

How the results depend on the processing

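No paired analysis was possible because the tables carry no replicate numbers, so the fit with a replicate block was not run; a count model was not run because the values are not shown to be raw counts. Windows set the counts. With flanks of 2500 bp, gene bodies only and flanks of 25000 bp, first-pair G9a regions numbered 15, 13 and 56 (27 with 10000 bp), second-pair ones 15, 11 and 71 (32), and separated ones 15, 10 and 69 (33); members with a first-pair region were 6 and 6, and with a second-pair region 5 and 5, under the narrower windows. H3K9me2 first-pair regions numbered 7 and 5 under the narrower windows and 6 at a deposited p of at most 0.001 (11), at 2 members in gene bodies. Second-pair ones numbered 3 in gene bodies and 16 with 25000 bp (8), at 1 and 8 members (5), and separated ones 7 and 25 (16). H3K27me3 first-pair regions numbered 3, 2 and 31 (16) at 3, 2 and 10 members (6), second-pair ones 10, 4 and 38 (18) at 3, 3 and 9 members (5), and separated ones 11, 6 and 58 (29). With a pseudocount of 10, limma called 1 H3K9me2 region, the one upstream of Ankrd1. Among single regions, 235 of 240 alternative values kept direction and side of the threshold. Those that reversed did so with 1 library left out, with ranges of -0.28 to 3.14 for the G9a region of Nppa under Clcn6, -1.28 to 0.025 for that of Ankrd1 under Rpp30, -0.11 to 1.61 for H3K9me2 at Acta2 and -0.060 to 3.40 for the second-pair G9a region of Xirp1. Of 249 values for locus sums, 196 stayed within the spread, 38 moved and 15 reversed. For G9a sums the ranges with 1 library left out were -1.34 to 0.16 at Nppa, -0.21 to 0.10 at Nppb, -1.59 to 0.13 at Acta2 and -0.99 to 0.12 at Xirp1, and for H3K9me2 at Acta2 -0.11 to 1.61. G9a sums also reversed with 25000 bp at Nppb (0.35) and Xirp1 (0.30), with size factors at Nppb (0.022), and under the narrower windows at Acta1 (-0.12 and -0.027) and Rcan1 (-0.95 and -0.96), as did H3K27me3 at Acta2 (0.012 under both). Beyond the windows' own size, the cause was not tested. The direction of all 112 regions held with size factors. Keeping only G9a directions that hold without library 1 of the second pair was chosen after seeing the data, as were the values with 1 library left out for other genes, the median without Ankrd1 and the 10000 bp limit on neighbours; these are in the report.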
